A study of Mus musculus with 23 samples.

Results

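The genes described here are 34 genes of myelin and of the mature oligodendrocytes that make it, chosen by symbol from the 39017 genes of a count table of mouse cortex RNA. The rule is a list of symbols, and all 34 were found in the table. The study sequenced total RNA of pulverised cortex from mice that carry 1 altered copy of H3f3a, a gene of the histone variant H3.3, and from mice with only unaltered copies (WT). In the altered copy the glycine at residue 34 is replaced by arginine (G34R), valine (G34V) or tryptophan (G34W). At 10 weeks of age there were 6 WT animals (genotype label Hf3fa+/+), 3 G34R animals (Hf3fa+/G34R), 3 G34V animals (Hf3fa+/G34V) and 2 G34W animals (Hf3fa+/G34W). At postnatal day 7 there were 4 WT (H3f3a +/+) and 4 G34R (H3f3a G34R/+) animals, with 2 males and 2 females of each genotype. The 10-week animals were males except G34W replicate 2, which is labelled female. The labels name no treatment, and the strain and the way the alleles were made are not stated in the labels.

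Oligodendrocytes wrap axons in myelin, a tightly stacked membrane that is rich in galactolipids, cholesterol and a few abundant proteins. In the mouse cortex most of it is laid down after the first postnatal week, when precursor cells stop dividing and switch on a shared set of genes under the transcription factors SOX10 and MYRF. The proteins of the set compact and seal the membrane, anchor it to the axon and supply its lipids.

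Total counts were 28.4 to 90.1 M per library (M, mega). Levels are given as CPM, the counts a gene would have in a library of 1 M counts, scaled by TMM, a normalisation that sets most genes equal between libraries. Differences are log2 fold changes from the quasi-likelihood F test of edgeR, with p-values adjusted by Benjamini-Hochberg over all genes tested, and a gene is said to have fallen or risen where the adjusted p is under 0.05. The p-values set each difference against the spread between these animals, which a fit estimates over all its groups together. The p-values of G34W, a group of 2 animals, thus also rest on the spread in the other 10-week groups. In bulk tissue, fewer cells of a type and less RNA per cell cannot be told apart. Markers of neurons were present throughout (summed over 8 genes, 5179 to 6481 CPM at 10 weeks and 2719 to 3118 CPM at day 7). H3f3a itself was at 41.5 to 49.8 CPM in WT at 10 weeks, and its log2 differences there were -0.07 in G34R, -0.12 in G34V and -0.11 in G34W, none of them called. At day 7 H3f3a fell in G34R by 0.25 (adjusted p = 0.0428). The counts do not show the altered codon. The share of counts from mitochondrial protein-coding genes was 0.886% to 1.03% in the 3 G34R libraries, those of WT replicates 1 and 4 and 1 of 2 libraries of WT replicate 3, and 1.12% to 1.36% in the other 10-week libraries, which hold all G34V and G34W animals.

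4 promoter stretches show what the start sites of genes described below look like. They are the 250 bases before a RefSeq start site on GRCm38.p6, written 5′ to 3′ along the gene, with matches in capitals. The motifs searched on both strands were ACAAAG and ACAATG, which resemble the core bound by SOX proteins, and CTGGCAC and CTGGTAC, which resemble the core bound by MYRF. Mag and Cnp are shown because they hold both kinds, as Hapln2 also does, S1pr5 because its difference from WT was among the largest, and Mobp because it holds 6 copies of ACAAAG, all on the opposite strand.
Mag, chr7:30914864-30915113, minus strand: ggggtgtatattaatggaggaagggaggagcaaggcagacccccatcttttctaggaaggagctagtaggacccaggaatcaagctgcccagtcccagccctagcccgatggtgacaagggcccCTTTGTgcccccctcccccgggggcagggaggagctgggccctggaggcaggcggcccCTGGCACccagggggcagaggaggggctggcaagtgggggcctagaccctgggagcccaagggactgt
Cnp, chr11:100574689-100574938, plus strand: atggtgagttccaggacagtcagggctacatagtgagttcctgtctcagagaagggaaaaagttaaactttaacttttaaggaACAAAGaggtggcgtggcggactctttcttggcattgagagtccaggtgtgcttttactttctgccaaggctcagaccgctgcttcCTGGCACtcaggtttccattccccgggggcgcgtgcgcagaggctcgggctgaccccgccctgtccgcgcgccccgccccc
S1pr5, chr9:21248444-21248693, minus strand: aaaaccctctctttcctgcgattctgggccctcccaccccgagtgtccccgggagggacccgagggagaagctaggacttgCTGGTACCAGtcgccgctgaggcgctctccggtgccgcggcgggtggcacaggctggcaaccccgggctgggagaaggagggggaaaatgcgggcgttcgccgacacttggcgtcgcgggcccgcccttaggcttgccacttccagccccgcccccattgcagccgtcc
Mobp, chr9:120149492-120149741, plus strand: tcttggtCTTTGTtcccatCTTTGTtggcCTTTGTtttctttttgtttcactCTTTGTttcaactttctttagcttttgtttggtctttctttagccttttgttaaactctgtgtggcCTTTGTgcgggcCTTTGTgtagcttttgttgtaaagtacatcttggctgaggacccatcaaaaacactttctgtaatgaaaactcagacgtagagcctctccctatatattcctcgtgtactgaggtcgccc
In Mag, ACAAAG lies on the opposite strand at position -126 from the start site and CTGGCAC at -68. In Cnp, ACAAAG lies at -167 and CTGGCAC at -81. In S1pr5, CTGGTAC is read on both strands, at -169 and -166, so that the matches overlap. Of the 34 genes, 25 had windows, 32 in all, and a SOX-type match stood in 13 of the 32 (11 genes) against 25.2% of all 32851 windows. A MYRF-type match stood in 6 of the 32 (5 genes, the others being Hapln2 and Mog) against 5.93% of all windows. Windows of a gene can overlap: a pair of Mag shares its SOX-type and MYRF-type matches, and a pair of Gal3st1 its SOX-type match. Each shared match was counted in both windows. A match describes the letters of the window and is not a shown binding site.

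In WT cortex at 10 weeks the 34 genes covered a wide range of levels. Per kilobase of exon, Mbp, which encodes the myelin basic protein that compacts the sheath, stood highest at 212 ± 25.7 CPM per kilobase (SD, n = 6). Trf (106 ± 8.93), Cnp (99.7 ± 9.70) and Mobp (99.3 ± 14.4) followed, and these 3 did not differ beyond their spread. The lowest were Aspa (3.20 ± 0.346), Klk6 (2.52 ± 0.549) and Myrf (1.92 ± 0.361). Between WT animals the coefficient of variation of a gene's CPM had a median of 12.1%, from 5.19% for Apod to 30.3% for Enpp2. WT replicate 1 held the highest WT value for 30 of the 34 genes.

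At 10 weeks most of the genes had a lower mean in each of the 3 mutant groups than in WT, by different amounts. In G34V, 12 of 34 fell (35.3%) and 0 rose, where 2.68% of all 21274 genes tested fell and 1.57% rose. The median log2 difference of the 34 was -0.49 against 0.01 for all genes, and 33 of 34 were negative. For 21 of the 34 genes every G34V animal lay below every WT animal, which held for 5.86% of all genes, and for 0 every G34V animal lay above (4.22% of all genes). In G34W, with 2 animals, 6 of 34 fell (17.6%) and 0 rose, against 1.05% and 0.564% of all genes, with a median of -0.43, and 32 were negative. The G34W and WT ranges did not overlap for 21 genes, all lower, against 9.09% of all genes lower and 7.35% higher. In G34R, 2 of 34 fell (5.88%) and 0 rose, against 2.66% and 2.95% of all genes, with a median of -0.19 and 29 negative, and ranges did not overlap for 4 genes, all lower (11.8%), against 6.09% of all genes lower and 6.05% higher. These comparisons share the 6 WT animals, so the 3 sets of values are not independent of each other.

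**Figure D1:**
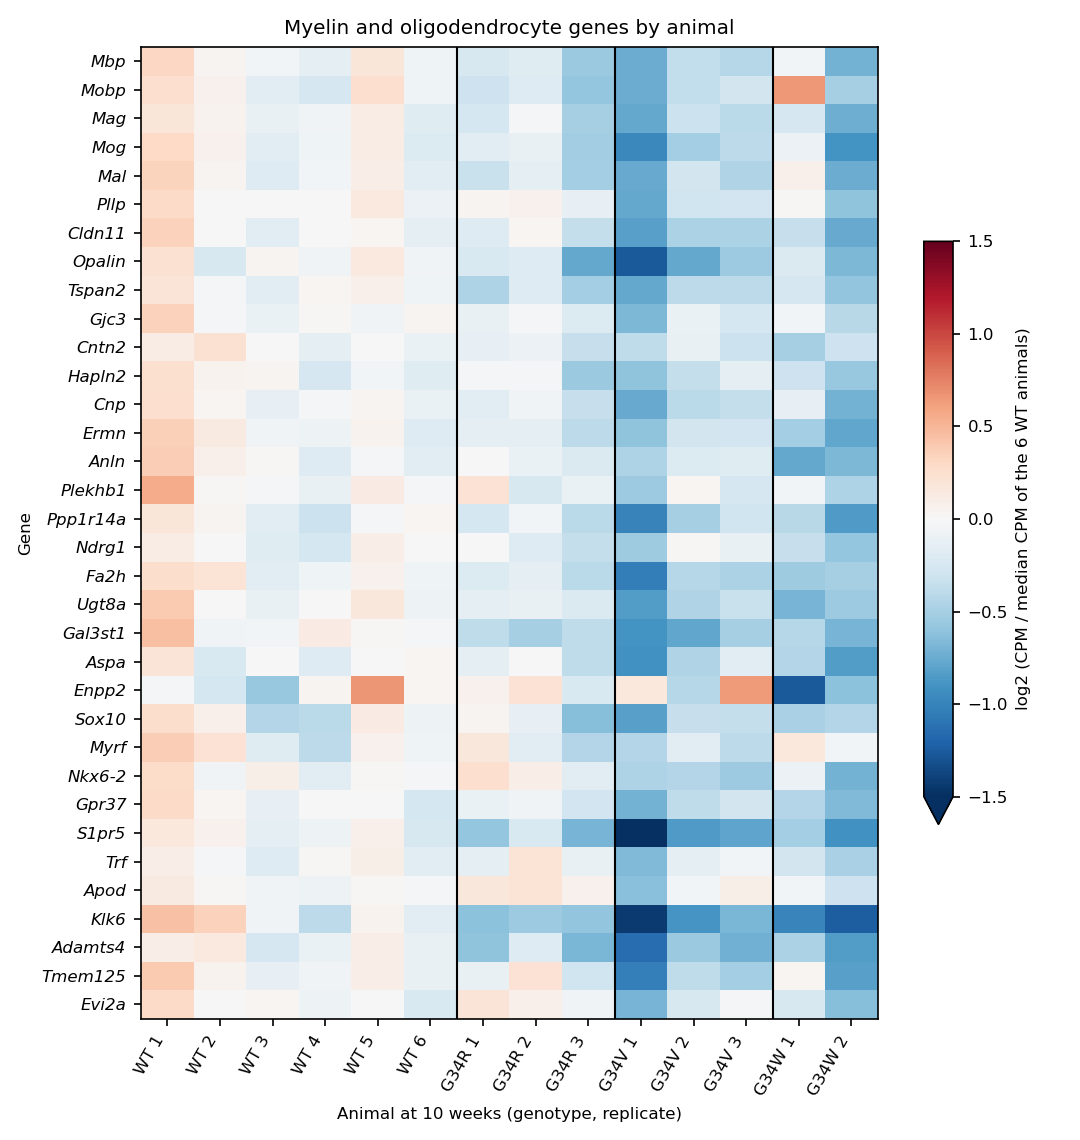
Level of each of the 34 genes in each 10-week animal as the log2 ratio to the WT median, genes ordered by role and animals by group, with colours that stop at -1.5 and 1.5. The G34V columns are mostly below 0 (33, 26 and 24 genes below every WT animal), G34R replicate 3 is the lowest of its group for 30 genes, and S1pr5 in G34V replicate 1 lies just beyond the end of the colours.

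The mutant animals of 1 group were not alike. The median log2 ratio to the WT median over the 34 genes was -0.76, -0.38 and -0.34 in the G34V animals, -0.15, -0.11 and -0.38 in the G34R animals and -0.29 and -0.67 in the G34W animals. In the WT animals it lay between -0.12 and 0.27. G34V replicate 1 was thus the lowest of all 14, and had the lowest G34V value for 32 genes, while G34R replicates 1 and 2 were close to the lowest WT animal. Animals whose title numbers follow each other can also be set against the WT animal of the same run. There, 33, 32 and 29 of the 34 genes were lower in the G34V animals, 30 and 34 in the G34W animals and 32, 16 and 30 in the G34R animals. The 32 of G34R replicate 1 is against WT replicate 1 alone, the highest WT animal for 30 genes. Against the WT median 25 of its genes were lower. G34V replicates 1 and 2 share WT replicate 2, and G34R replicates 2 and 3 share WT replicate 4. Both G34W animals were set against the mean of WT replicates 5 and 6. With runs of numbers as a block in the edgeR fit, 3 genes fell in G34V (Gal3st1, Klk6 and Cntn2, the last not called without the block), 1 in G34W (Anln) and 1 in G34R (Gal3st1).

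Of the 5 lipid and metabolic enzymes of myelin, 3 fell in G34V, 2 in G34W and 1 in G34R. Gal3st1 (chr11:3983636-3999326 on GRCm38, plus strand), which adds the sulfate that turns galactosylceramide into sulfatide, was at 8.38, 8.72 and 11.9 CPM in WT (lowest, median and highest of 6), at 6.68, 6.17 and 6.70 in G34R, at 4.70, 5.08 and 6.16 in G34V and at 6.49 and 5.39 in G34W. All 8 mutant animals lay below every WT animal. It fell in each group, with log2 differences of -0.80 in G34V (SE 0.128, edgeR adjusted p = 0.001), -0.65 in G34W (SE 0.15, adjusted p = 0.0388) and -0.51 in G34R (SE 0.125, adjusted p = 0.0204). Gal3st1 was the only 1 of the 34 to be called in all 3. The G34V call held in each of 14 fits that left out 1 animal. The G34R call ended without G34R replicate 1, 2 or 3 (adjusted p = 0.0704, 0.0978 and 0.0743), and the G34W call without G34W replicate 1 or 2 (0.11 and 0.163), G34R replicate 1, 2 or 3 (0.0506, 0.0506 and 0.0531), G34V replicate 2 (0.0536) or WT replicate 4 (0.0653).

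Ugt8a, which makes galactosylceramide and so acts just before Gal3st1, was at 77.2, 83.6 and 110.0 CPM in WT, at 46.8, 61.3 and 66.4 in G34V and at 51.4 and 57.4 in G34W. Every G34V and G34W animal lay below every WT animal. It fell by 0.60 in log2 units in G34V (SE 0.117, edgeR adjusted p = 0.00799) and by 0.69 in G34W (SE 0.138, adjusted p = 0.0235). In G34R, Ugt8a was at 75.3, 77.4 and 71.8 CPM, with a log2 difference of -0.23 (adjusted p = 0.302). Fa2h, which adds the hydroxyl group found on many myelin lipids, was at 14.9, 16.8 and 20.2 CPM in WT, 8.20, 12.5 and 12.1 in G34V, 11.6 and 11.9 in G34W and 14.6, 15.3 and 12.7 in G34R. It fell in G34V (log2 -0.66, SE 0.127, adjusted p = 0.00479) and missed the threshold in G34W (-0.56, 0.0691) and G34R (-0.29, 0.227), although the G34W and WT ranges did not overlap. The Ugt8a and Fa2h calls in G34V held in each of 14 fits that left out 1 animal. Both ended with runs of numbers as a block (edgeR adjusted p = 0.165 and 0.0855). The Ugt8a call in G34W ended without G34W replicate 1 or 2, where 1 G34W animal was left and the log2 differences were -0.62 and -0.78. Aspa, whose enzyme frees acetate from N-acetylaspartate, was at 16.5 to 22.2 CPM in WT and had log2 differences of -0.45 in G34V (adjusted p = 0.0957), -0.61 in G34W (0.0892) and -0.14 in G34R (0.664).

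Enpp2, which encodes the secreted enzyme autotaxin, was at 325, 484 and 767 CPM in WT, 540.2, 361 and 754 in G34V, 203 and 316 in G34W and 508, 563 and 415 in G34R. The WT range covered the G34V and G34R animals, while both G34W animals lay below it. The log2 differences were 0.16 in G34V (SE 0.286, edgeR adjusted p = 0.861), -0.93 in G34W (SE 0.352, adjusted p = 0.222) and 0.01 in G34R (SE 0.287, adjusted p = 0.995). Choroid plexus also makes autotaxin, and Ttr, a marker of that tissue, ran from 132 to 857 CPM in WT. Ttr was at 7.10 CPM in G34W replicate 1, the animal with the lowest Enpp2, and at 974 CPM in G34V replicate 3, which had 754 CPM of Enpp2. WT replicate 5 had the highest Enpp2 in WT (767 CPM) and the highest Ttr in WT (857 CPM). The 10 choroid plexus markers together summed to 159 to 981 CPM in WT, 459 to 761 in G34R, 251 to 1101 in G34V and 16.8 to 217 in G34W, with none at 0 in a whole group and 0 of 10 called in any of the 3 comparisons with WT. The part of choroid plexus RNA in the Enpp2 values was not tested.

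**Figure D2:**
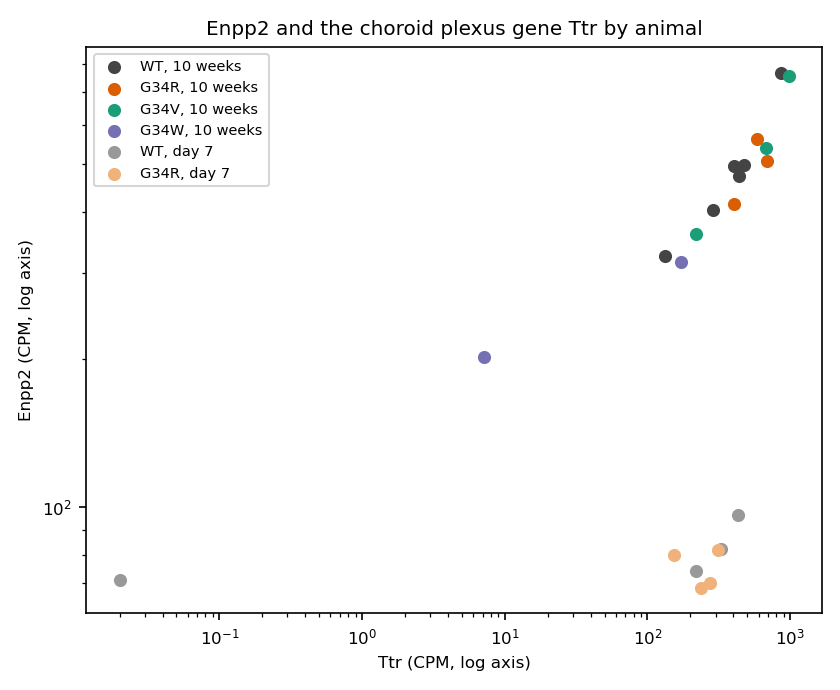
Enpp2 (vertical axis, CPM, log scale) against the choroid plexus marker Ttr (horizontal axis, CPM, log scale) in each animal, coloured by group. G34W replicate 1 lies at the lower left of the 10-week animals (Ttr 7.10 CPM, Enpp2 203 CPM), and 1 day 7 WT animal has 0.0201 CPM of Ttr with 71.2 CPM of Enpp2.

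Of the 12 genes of the myelin membrane and its contact with the axon, 3 fell in G34V, 1 in G34W and 1 in G34R, with median log2 differences of -0.50, -0.42 and -0.26. Opalin, an oligodendrocyte-specific transmembrane protein, was at 18.7, 22.1 and 25.9 CPM in WT and at 9.21, 13.0 and 15.1 in G34V. No G34V animal reached the WT range. It fell by 0.85 in log2 units (SE 0.167, edgeR adjusted p = 0.00872), and the call held in each of 14 fits that left out 1 animal. With runs of numbers as a block the Opalin call ended (0.11). In G34W (19.0 and 13.8 CPM) and G34R (18.9, 19.3 and 13.0 CPM) the values overlapped with WT, and the log2 differences were -0.45 (adjusted p = 0.247) and -0.39 (0.206). Cldn11, the claudin of the tight junctions that seal the sheath, was at 122, 137 and 174 CPM in WT, 77.9, 98.4 and 98.0 in G34V, 108 and 81.0 in G34W and 119.5, 139.8 and 106 in G34R. The G34V and G34W animals lay below every WT animal. Cldn11 fell in G34V (log2 -0.60, SE 0.131, adjusted p = 0.0173), a call that ended without G34V replicate 1 (0.11) or 3 (0.0526), and was not called in G34W (-0.56, 0.0894) or G34R (-0.19, 0.493).

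Tspan2, a tetraspanin that rises as oligodendrocytes mature, was at 102, 115 and 131 CPM in WT, 67.8, 87.4 and 87.9 in G34V, 96.9 and 76.7 in G34W and 83.2, 100.4 and 81.1 in G34R. Each of the 8 mutant animals lay below the lowest WT animal. Tspan2 fell in G34V (log2 -0.52, SE 0.104, edgeR adjusted p = 0.00851) and in G34R (-0.39, SE 0.103, adjusted p = 0.0348). In G34W the log2 difference was -0.42 (adjusted p = 0.0988). The G34V call ended without G34V replicate 1 (0.0625). The G34R call ended without G34R replicate 1 (0.16) or 3 (0.21), WT replicate 1 (0.0742), 2 (0.0551), 4 (0.0735) or 5 (0.0656), or G34V replicate 3 (0.0505). Cntn2, the axonal adhesion protein contactin-2 that neurons make as well, was at 129, 141 and 166 CPM in WT and at 99.8 and 114 in G34W. It fell in G34W by 0.42 on the log2 scale (SE 0.103, adjusted p = 0.0481). That call ended without G34W replicate 1 (0.296) or 2 (0.0515), WT replicate 1 (0.0674), 2 (0.0519), 3 (0.0574) or 5 (0.0688), or G34R replicate 1 (0.0608) or 2 (0.0561).

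Mbp, Mag, Mog and Mobp, structural proteins of the sheath, did not pass the threshold in any group. Mbp was at 1566, 1724 and 2144 CPM in WT, 1029, 1334 and 1284 in G34V, 1459, 1517 and 1169 in G34R and 1679 and 1058 in G34W. The 3 G34V and 3 G34R animals lay below every WT animal, and 1 G34W animal lay inside the WT range. The log2 differences of Mbp were -0.56 in G34V (SE 0.15, edgeR adjusted p = 0.0565), -0.38 in G34R (SE 0.149, adjusted p = 0.194) and -0.39 in G34W (SE 0.174, adjusted p = 0.274). Mag, an adhesion protein of the inner sheath, was at 163, 184 and 209 CPM in WT and at 108, 147 and 139 in G34V, with no overlap (log2 -0.49, adjusted p = 0.0592). Mog, on the outer surface of the sheath, was at 49.4 to 70.3 CPM in WT and at 29.2, 39.9 and 43.4 in G34V (log2 -0.62, adjusted p = 0.103). Mobp, a protein of compact myelin, was at 561, 666 and 795 CPM in WT, 396, 514 and 549 in G34V, and at 1045 and 473 in G34W. The 2 G34W animals thus stood on either side of the WT range. Its log2 difference in G34W was 0.16 (SE 0.252, adjusted p = 0.789). In the same G34W replicate 1, 22 of the 34 genes lay below every WT animal, Ugt8a, Anln, Ermn and Klk6 among them. Mobp was the only 1 of the 34 above every WT animal there. The other 4 genes of the group of the membrane and its contact with the axon, Mal, Pllp, Gjc3 and Hapln2, were not called in G34V. Their log2 differences there were -0.50, -0.49, -0.37 and -0.33. Exons of Pllp overlap another gene over 54.2% of their bases and those of Trf over 63.5%, so reads of the neighbours may be counted with these 2 where strand was not used.

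**Figure D3:**
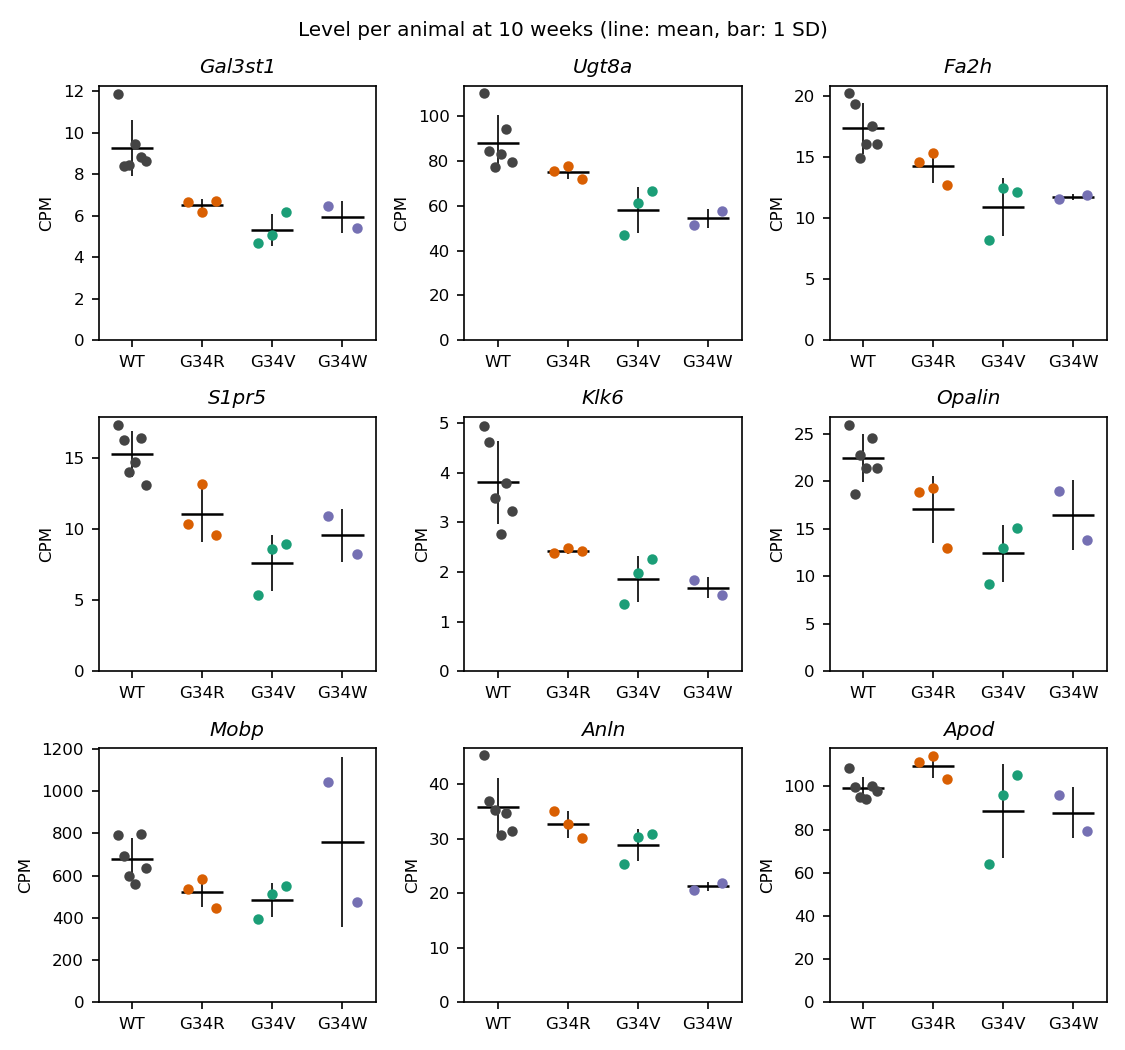
CPM of 9 of the genes in each 10-week animal by group, 1 point per animal, with the mean as a line and 1 SD as a bar. For Gal3st1 and Klk6 all 8 mutant animals lie below the 6 WT animals, and for Mobp G34W replicate 1 (1045 CPM) lies above them.

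Of the 6 genes of the cytoskeleton and cytoplasm of the sheath, Cnp fell in G34V, and Anln and Ermn fell in G34W. Cnp, whose protein keeps cytoplasmic channels in myelin open, was at 329, 359 and 427 CPM in WT, 213, 271 and 280.2 in G34V, 328 and 219.6 in G34W and 323, 346 and 282 in G34R. The G34V and G34W animals lay below every WT animal, G34W replicate 1 only just. The log2 difference in G34V was -0.51 (SE 0.126, edgeR adjusted p = 0.036), in G34W -0.41 (0.183) and in G34R -0.20 (0.459). The G34V call of Cnp ended without G34V replicate 1 (0.197), 2 (0.0815) or 3 (0.0676), WT replicate 1 (0.0632), 2 (0.0654), 4 (0.0655) or 5 (0.0646), or G34R replicate 1 (0.0509), and with no filter on low counts (0.0708). It also ended within the library set by mitochondrial share that holds G34V (0.125) and with runs of numbers as a block (0.381).

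Anln, anillin, a scaffold of septin filaments in myelin and of the furrow of dividing cells, was at 30.7, 35.0 and 45.4 CPM in WT, 20.6 and 21.9 in G34W, 25.4, 30.3 and 30.8 in G34V and 35.1, 32.6 and 30.2 in G34R. Both G34W animals lay below all 12 others. Anln fell in G34W by 0.75 in log2 units (SE 0.128, edgeR adjusted p = 0.00891), and the log2 differences were -0.31 in G34V (0.134) and -0.13 in G34R (0.576). The G34W call ended without G34W replicate 1 (0.111). Ermn, ermin, which shapes the actin network of the sheath, was at 54.7, 62.3 and 79.7 CPM in WT, 43.9 and 36.4 in G34W and 40.9, 51.4 and 51.3 in G34V. The 2 groups lay below every WT animal. Ermn fell in G34W (log2 -0.68, SE 0.137, adjusted p = 0.0235), a call that ended without G34W replicate 1 (0.0877) or 2 (0.125), and its log2 difference in G34V was -0.43 (adjusted p = 0.0502). The 3 others, Ppp1r14a, Plekhb1 and Ndrg1, had log2 differences of -0.53, -0.34 and -0.16 in G34V and -0.58, -0.34 and -0.42 in G34W, none of them called.

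Of the 3 transcription factors, Nkx6-2, a homeodomain factor of myelinating cells, fell in G34V. It was at 9.76, 11.0 and 13.3 CPM in WT, 7.99, 8.09 and 7.55 in G34V, 13.1, 11.7 and 9.82 in G34R and 10.4 and 6.74 in G34W. The G34V animals lay below every WT and every G34R animal. The log2 difference was -0.51 in G34V (SE 0.13, edgeR adjusted p = 0.0317), 0.04 in G34R (0.906) and -0.40 in G34W (0.191). The G34V call ended without G34V replicate 1 (0.105), 2 (0.0977) or 3 (0.118) or WT replicate 1 (0.0603), 3 (0.056) or 5 (0.0519). It also ended within the library set by mitochondrial share that holds G34V (0.0689) and with runs of numbers as a block (0.133). The regulators at the head of the programme were not called. Sox10 was at 16.4, 22.2 and 26.6 CPM in WT and at 12.6, 17.4 and 17.3 in G34V, with overlapping ranges and a log2 difference of -0.43 (adjusted p = 0.262). Myrf was at 12.3, 16.1 and 20.8 CPM in WT, 11.9, 14.5 and 12.3 in G34V and 18.02 and 15.6 in G34W, with log2 differences of -0.34 in G34V (0.31) and 0.04 in G34W (0.937).

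Both receptors fell in G34V. S1pr5 (chr9:21242912-21248443, minus strand), a receptor for sphingosine-1-phosphate found on mature oligodendrocytes, was at 13.1, 15.5 and 17.3 CPM in WT, 5.34, 8.56 and 8.96 in G34V, 10.9 and 8.25 in G34W and 10.3, 13.2 and 9.54 in G34R. The G34V and G34W animals lay below the WT range, and G34R replicate 2 was just inside it. S1pr5 fell in G34V by 0.997 in log2 units (SE 0.157, edgeR adjusted p = 0.00123), a call that held in each of 14 fits that left out 1 animal. The call ended with runs of numbers as a block (0.0582). The log2 differences of S1pr5 were -0.68 in G34W (adjusted p = 0.0747) and -0.48 in G34R (0.0869). Gpr37, a receptor that restrains oligodendrocyte differentiation, was at 60.8, 73.0 and 89.4 CPM in WT, 44.8, 56.2 and 60.1 in G34V and 53.9 and 46.1 in G34W. The G34V and G34W animals lay below every WT animal. Gpr37 fell in G34V by 0.44 on the log2 scale (SE 0.112, adjusted p = 0.0365), and the difference in G34W was -0.55 (0.0534). The G34V call of Gpr37 ended without G34V replicate 1 (0.199) or 2 (0.0902) or WT replicate 2 (0.0655), 4 (0.0664) or 5 (0.0616), and with no filter on low counts (0.059). It also ended within the library set by mitochondrial share that holds G34V (0.0972), with only the compared groups (0.0694) and with runs of numbers as a block (0.194).

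Of the 4 secreted proteins and proteases, the proteases Klk6 and Adamts4 fell in G34V and the carriers Trf and Apod were not called in any group. Klk6 (chr7:43824499-43832030, plus strand), a kallikrein-related serine protease, was at 2.77, 3.64 and 4.94 CPM in WT, 2.37, 2.49 and 2.42 in G34R, 1.35, 1.98 and 2.267 in G34V and 1.83 and 1.54 in G34W. All 8 mutant animals lay below every WT animal. Klk6 fell by 1.02 in log2 units in G34V (SE 0.202, edgeR adjusted p = 0.00592) and by 1.18 in G34W (SE 0.248, adjusted p = 0.0235), which were the largest of the 34 differences in each, and was at -0.65 in G34R (SE 0.196, adjusted p = 0.0656). The G34V call ended without G34V replicate 1 (0.0505) and the G34W call without either G34W animal (0.111 and 0.103). Adamts4, a metalloprotease of the extracellular matrix, was at 26.9, 32.1 and 35.6 CPM in WT, 14.6, 21.8 and 19.5 in G34V, 23.1 and 17.9 in G34W and 21.1, 28.002 and 19.95 in G34R. Every G34V and G34W animal lay below the WT range. Adamts4 fell in G34V (log2 -0.77, SE 0.143, adjusted p = 0.00576), and its differences were -0.64 in G34W (0.075) and -0.47 in G34R (0.0721). The G34V call of Adamts4 held in each of 14 fits that left out 1 animal, and ended with runs of numbers as a block (0.166).

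Trf, transferrin, which oligodendrocytes make as an iron carrier, was at 312, 357 and 384 CPM in WT and 324, 410.5 and 329.6 in G34R. Apod, a lipid carrier, was at 94.0, 98.9 and 108 CPM in WT and 111, 114 and 103 in G34R. For both genes the G34R animals stood within or above the WT range, with log2 differences of 0.01 (edgeR adjusted p = 0.98) and 0.14 (0.581). In G34V the differences of Trf and Apod were -0.23 and -0.16. The little-studied genes Tmem125 and Evi2a had log2 differences of -0.66 (adjusted p = 0.0575) and -0.30 (0.286) in G34V and of -0.40 and -0.44 in G34W, without a call.

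**Figure D4:**
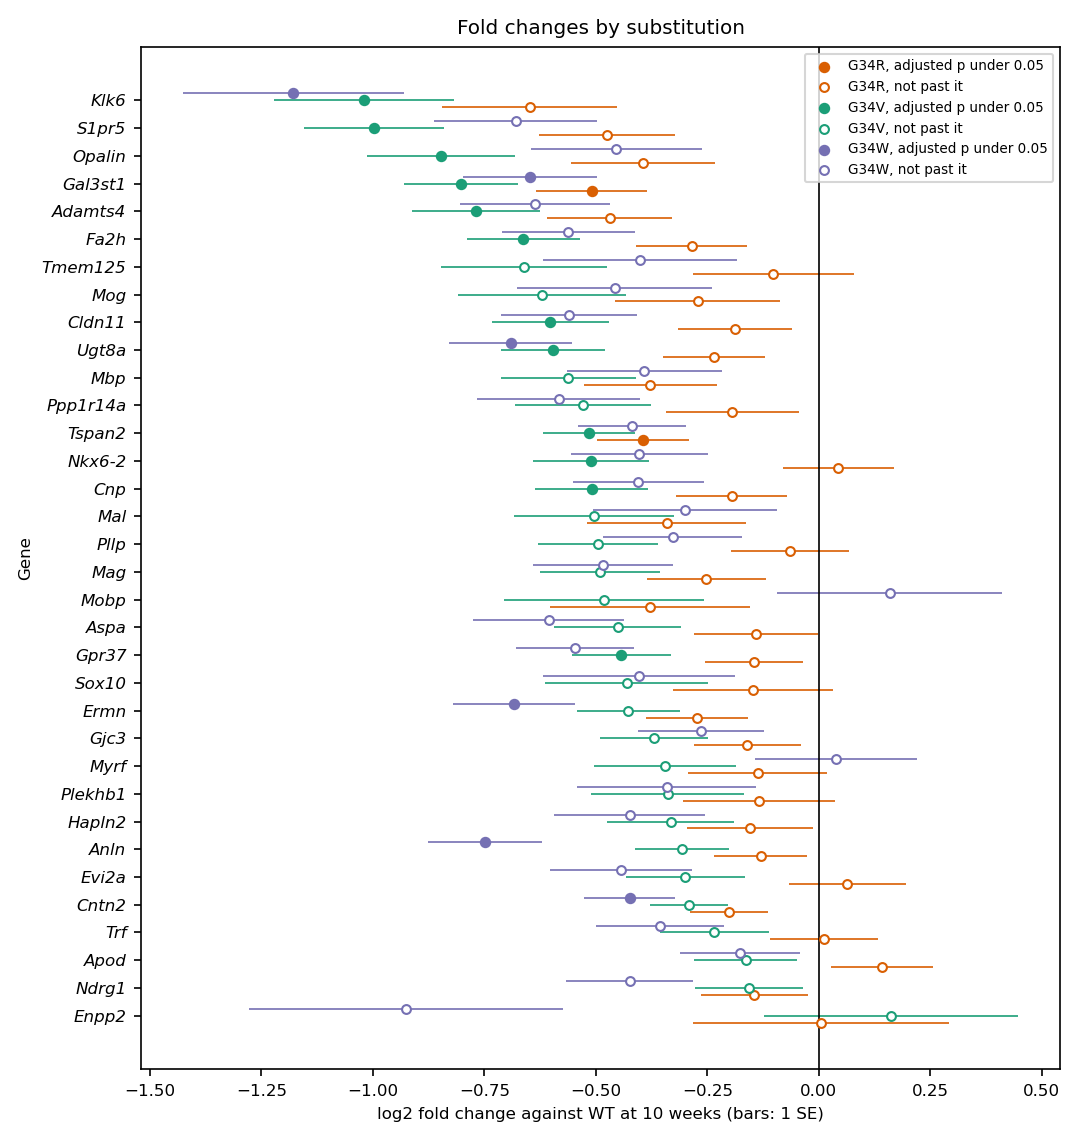
Log2 fold change of each of the 34 genes against WT at 10 weeks in G34R, G34V and G34W, with bars of 1 SE and filled points where the edgeR adjusted p is under 0.05. Most points lie left of 0, with 12 filled in G34V, 6 in G34W and 2 in G34R, and Enpp2 in G34V and Mobp in G34W among the few to the right.

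Set directly against each other, the substitutions gave few calls. The G34R libraries all belong to the set of lower mitochondrial share, and the G34V and G34W libraries all to the other. A difference of G34R from either group thus cannot be told apart from the library set. Between G34R and G34V, 0 of 34 genes were called by edgeR, where 0.174% of genes tested were higher in G34R and 0.0564% were lower. The median log2 difference was 0.29, and 0.18 with runs of numbers as a block. DESeq2 called 1 and limma-voom called 0. An unadjusted edgeR p under 0.05 was found for 12 of the 34 genes and for 2316 of all 21274 genes. All G34R animals lay above all G34V animals for 10 genes (29.4%) and below them for 0, against 9.24% and 9.42% of all genes. The 10 were Pllp, Cldn11, Cnp, Fa2h, Ugt8a, Gal3st1, Nkx6-2, S1pr5, Klk6 and Tmem125. Nkx6-2 had the smallest p of these, with a log2 difference of 0.56 (SE 0.147, edgeR adjusted p = 0.157). Between G34V and G34W, 0 of 34 were called by edgeR, where 0.113% of all genes were lower and 0.0376% higher in G34V. Of the 34, 3 had an unadjusted edgeR p under 0.05, as had 2486 of all 21274 genes. DESeq2 and limma-voom called 0 of the 34, and the median log2 difference was -0.03. The G34V and G34W ranges did not overlap for Anln and Enpp2, higher in G34V (13.9% of all genes), and for Myrf, lower in G34V (13.5% of all genes).

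Between G34R and G34W, 1 of 34 was called, Anln, where 0.945% of genes tested were higher in G34R and 0.935% were lower. It was higher in G34R by 0.62 in log2 units (SE 0.14, edgeR adjusted p = 0.0339). That call ended without G34R replicate 1 (0.102) or 2 (0.0844). It also ended without G34W replicate 1 or 2, where 1 G34W animal was left and the log2 differences were 0.58 and 0.67. The sex label as a covariate acts like leaving out G34W replicate 2, the only female of 10 weeks, and gave 0.66. All G34R animals lay above both G34W animals for 12 genes (35.3%), against 17.2% of all genes. The median log2 difference of the 34 was 0.27, and 0.17 with runs of numbers as a block.

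The G34W group holds 1 animal labelled male and 1 labelled female, and its calls depended on both. The title of the second, G34W replicate 2, begins with M like those of the males, but its counts go with the sex label: Xist, expressed from the inactive X chromosome, had 6323 counts there and at most 12 in the 13 other animals of 10 weeks, and the Y-linked Ddx3y had 2 there and at least 1815 in the others. Without G34W replicate 1, 0 of the 34 genes fell (edgeR), without G34W replicate 2 Anln fell alone, and without G34V replicate 1 the count was 11. G34W replicate 2 is the only female of 10 weeks, so the sex label as a covariate acts like leaving that animal out. It does not adjust the G34W group for sex. The median log2 difference in G34W was -0.28 under both settings. By limma-voom, 0 genes were called in G34W. The G34V count of 12 was 6 without G34V replicate 1 and 19 without G34W replicate 1, and between 9 and 18 in the other fits that left out 1 animal. The G34R count of 2 was 0 without G34R replicate 1 or 3, 1 without WT replicate 1, 2 or 5 or G34V replicate 3, and 4 without G34V replicate 1. Calls over all genes tested, lower and higher together, moved as well in the fits that left out 1 animal. They ranged from 497 to 1014 in G34V and from 693 to 1352 in G34R. Those in G34W moved too, but their range takes in fits with 1 G34W animal and is not given. The moves of the G34W counts of the 34 genes thus stand without that share beside them. Within the library set by mitochondrial share that holds each mutant group, G34V had 9 calls, G34W 3 and G34R 1. The median log2 difference of the 34 genes from WT was negative in each of the 3 mutant groups of 10 weeks under all the settings run.

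Genes of related programmes were counted next to the 34. Of 23 other genes of mature oligodendrocytes, 5 fell in G34V (Prr5l, Tmem88b, Tppp3, Gpr62 and Nipal4), 3 in G34W (Car2, Nipal4 and Galnt6) and 0 in G34R, where Il33 rose in a call that ended in 12 of 14 fits that left out 1 animal. The G34V count of 5 was 1 without G34V replicate 1 and 3 without G34V replicate 2, WT replicate 1 or WT replicate 4, and the G34W count of 3 was 1 without WT replicate 1, 5 without G34V replicate 3 and 6 without WT replicate 6. Their median log2 differences were -0.27, -0.34 and -0.07. Summed over the 23, WT animals had 1549 to 1755 CPM, G34R 1513 to 1628, G34V 1446 to 1529 and G34W 1315 to 1391. Nipal4, a magnesium transporter-like protein, was at 3.32 to 5.09 CPM in WT, 1.97, 2.49 and 2.63 in G34V and 1.45 and 1.84 in G34W. It fell by 0.81 in G34V (SE 0.16, edgeR adjusted p = 0.00596) and by 1.32 in G34W (SE 0.202, adjusted p = 0.00329) on the log2 scale. These calls ended without G34V replicate 1 (0.052) and without G34W replicate 1 (0.0666). Gpr62, an orphan receptor, fell in G34V by 0.58 (SE 0.106, adjusted p = 0.00338) and kept that call in every fit that left out 1 animal. With runs of numbers as a block the counts of 5 and 3 were 1 and 1, and the G34V calls of Nipal4 (0.0774) and Prr5l (0.267) ended.

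Of 12 further genes of sphingolipid metabolism, Cers2, which makes the very long ceramides of myelin, fell in G34V (log2 -0.37, SE 0.0976, edgeR adjusted p = 0.0375) and in G34W (-0.54, SE 0.116, adjusted p = 0.0279), and Elovl7 fell in G34W (-0.63, SE 0.137, adjusted p = 0.0276). In G34R 0 of 12 were called. The G34V call of Cers2 ended without G34V replicate 1 (0.231) or 2 (0.095) or WT replicate 1 (0.0512), 2 (0.057), 4 (0.0606) or 5 (0.0682), its G34W call without G34W replicate 1 (0.116) or 2 (0.113), and that of Elovl7 without G34W replicate 1 (0.222). With runs of numbers as a block these 3 calls ended (0.286, 0.133 and 0.166).

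Of 14 markers of oligodendrocyte precursors and newly formed oligodendrocytes, 4 fell in G34V (Enpp6, Susd5, Olig1 and Sox8), 1 in G34W (Sox8) and 1 in G34R (Susd5). The G34V count of 4 was 1 without G34V replicate 1 or 2 and 2 without replicate 3, and Susd5 in G34R was lost without G34R replicate 2 or 3. Summed over the 14, WT had 517 to 610 CPM, G34R 488 to 541, G34V 479 to 523 and G34W 584 to 617. Enpp6, which marks cells that are just starting to myelinate, was at 7.11, 8.45 and 11.5 CPM in WT and at 4.70, 5.17 and 6.16 in G34V (log2 -0.68, SE 0.149, edgeR adjusted p = 0.0118). Olig1, a lineage transcription factor, was at 48.4, 51.0 and 60.6 CPM in WT and at 37.1, 39.2 and 43.0 in G34V (log2 -0.39, SE 0.0734, adjusted p = 0.00371). For both genes the G34V animals lay below every WT animal. Sox8, a close relative of SOX10, fell by 0.33 in G34V (adjusted p = 0.0239) and by 0.53 in G34W (0.00969). The Enpp6 call ended without G34V replicate 1 (0.0861) or 2 (0.0687), and the Sox8 calls without G34V replicate 1 (0.0745), 2 (0.073) or 3 (0.104) in G34V and without G34W replicate 1 (0.0726) in G34W. With runs of numbers as a block 1 of the 14 fell in G34V, 0 in G34W and 2 in G34R, and the G34V calls of Enpp6 (0.149) and Olig1 (0.0634) and the G34W call of Sox8 (0.0819) ended.

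Markers of other cells moved with the groups in part. Of 8 microglial markers 5 rose in G34R and 3 in G34V (1 without G34V replicate 3), with summed levels of 324 to 354 CPM in WT, 498 to 541 in G34R, 365 to 460 in G34V and 353 to 386 in G34W. The microglial sums were highest in G34R, the mutant group whose median over the 34 myelin genes was nearest to 0. Of 9 astrocyte, 8 neuronal, 7 endothelial, 8 meningeal and 10 striatal markers 0 were called in any of the 3 comparisons with WT. Of 6 Schwann cell genes Pmp22 fell in G34V (log2 -0.47, edgeR adjusted p = 0.00324), a call that ended with runs of numbers as a block (0.0862). Among markers of neighbouring regions, Rgs16 of 8 thalamic markers fell by 1.12 in G34V, 1.35 in G34W and 0.79 in G34R on the log2 scale. The G34W and G34R calls of Rgs16 ended without either G34W animal (0.111 and 0.0535) and without any G34R animal (0.11, 0.117 and 0.0518), and the G34W call also with the block (0.0627). Slc17a6, another thalamic marker, fell in G34V in a call that ended without G34V replicate 1 (0.112) or 3 (0.0737), with the block (0.166) and within the library set of the mutants (0.151). The part of any of these cell types or regions in the values of the 34 genes was not tested.

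At day 7 the order of the levels was another. Per kilobase, Cnp stood highest in WT at 19.4 ± 1.76 CPM per kilobase (SD, n = 4), followed by Enpp2 (14.01 ± 1.96), Cntn2 (13.7 ± 1.01) and Mbp (11.3 ± 1.86), and these last 3 did not differ beyond their spread. Klk6 had a count of 0 in all 8 animals, which allows up to 0.018 CPM over the 4 WT animals together, counting error only. Opalin had 4 counts over the 4 WT animals and 4 over the 4 G34R animals. Of the 34 genes, 30 passed the filter on low counts at day 7, and Opalin, Hapln2, Klk6 and Tmem125 did not.

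In the G34R animals of day 7, 1 of the 30 genes fell (3.33%) against 0.196% of all 20451 genes tested, and 0 rose against 0.112%. The median log2 difference was 0.03, and 14 of 30 were negative. The gene that fell was S1pr5. It was at 2.06, 2.01, 1.66 and 2.16 CPM in WT and at 1.08, 0.516, 0.818 and 0.568 in G34R, with no overlap, which held in this direction for 2.92% of all genes. The log2 difference was -1.42 (SE 0.246, edgeR adjusted p = 0.0475). The call ended when WT replicate 1 (0.144), 2 (0.115), 3 (0.0685) or 4 (0.232) or G34R replicate 2 (0.0959), 3 (0.0885) or 4 (0.196) was left out, and when only genes of at least 1 CPM were tested (0.0534). The difference of the G34R effect between ages was 0.97 for S1pr5 (edgeR adjusted p = 0.0905).

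Ermn went the opposite way at day 7, at 0.663, 0.785, 0.690 and 0.490 CPM in WT and 0.949, 0.825, 1.56 and 1.39 in G34R. The ranges did not overlap, which held in this direction for 2.3% of all genes, and the log2 difference of 0.83 (SE 0.267) had an edgeR adjusted p of 0.405. At 10 weeks the Ermn values were 56.6, 56.1 and 47.3 CPM in G34R against 54.7 to 79.7 in WT. The difference of the G34R effect between ages, -1.11 on the log2 scale (SE 0.268), was the only 1 called among the 34 (adjusted p = 0.0437), against 0.602% of all 22417 genes lower and 0.562% higher. It ended in 17 of 22 fits that left out 1 animal (adjusted p up to 0.14), that is, without any 1 animal other than WT replicate 1 or 6 or G34V replicate 1 of 10 weeks or WT or G34R replicate 2 of day 7, and also with no filter on low counts (0.0793) and with limma-voom (0.242). The median of the 34 differences was -0.27, and Klk6, with no counts at day 7, adds no information to it.

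**Figure D5:**
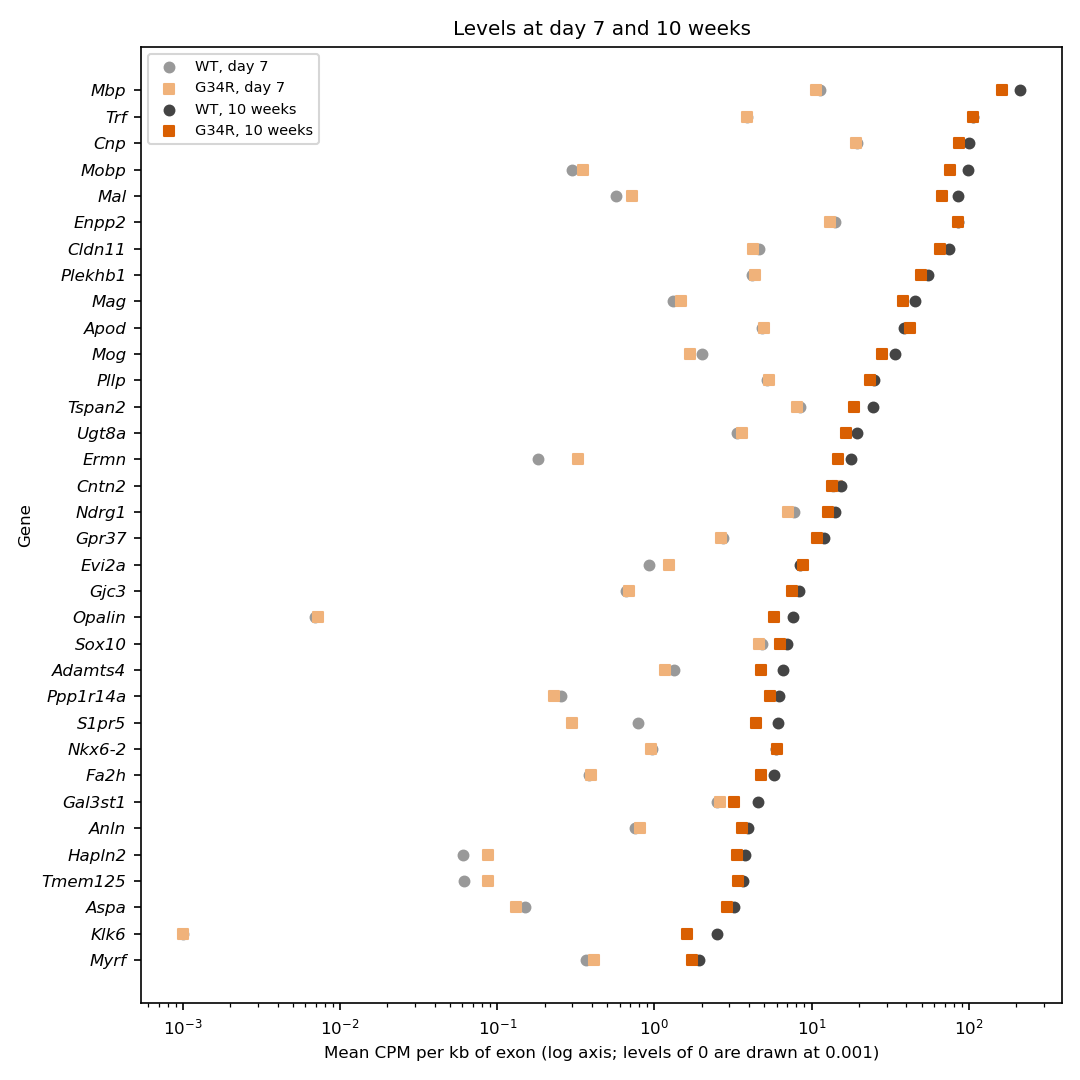
Mean CPM per kilobase of exon (horizontal log axis) of the 34 genes in WT and G34R at day 7 and 10 weeks, ordered by the WT level at 10 weeks, with a level of 0 drawn at 0.001. The 2 ages are far apart for Mobp and Klk6 and close for Cntn2, and at day 7 the G34R mean of S1pr5 lies below that of WT.

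Between day 7 and 10 weeks all 34 genes rose in WT, against 33.3% of all 22417 genes tested, and 34.4% fell. The median log2 rise was 3.43 against -0.01 for all genes, and for 32 of the 34 genes every 10-week WT animal lay above every day 7 WT animal, against 26.7% of all genes higher and 27.8% lower in this way. The smallest rise was that of Cntn2, 0.17 in log2 units (SE 0.0723, edgeR adjusted p = 0.0407), from 115 to 136 CPM at day 7 to 129 to 166 CPM at 10 weeks. The Cntn2 call ended without WT replicate 1 (0.078) or 2 (0.11) of 10 weeks or WT replicate 2 (0.0893) or 3 (0.154) of day 7, and with males only (0.249). Sox10 rose by 0.54 (adjusted p = 0.00808), from 11.0 to 17.1 CPM to 16.4 to 26.6 CPM, again with overlap. Gal3st1 rose by 0.86 and Ndrg1, a stress-responsive protein of the cytoplasm, by 0.87, both without overlap.

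Most of the other rises were far larger. Mbp rose 18.8-fold, from 79.6 to 110.1 CPM at day 7. Mal, a small protein that sorts myelin lipids and proteins, rose 147-fold from 1.31 to 2.01 CPM. Mobp rose 333-fold from 1.49 to 2.94 CPM. Ermn rose by 6.61, Tmem125 by 6.07 and Hapln2 by 5.92 on the log2 scale. Klk6, without a count at day 7, was at least 211-fold higher at 10 weeks in WT and at least 143-fold higher in G34R, set against 3 counts over each day 7 group. The transcription factors Myrf and Nkx6-2 rose by 2.38 and 2.59 on the log2 scale. The 2 ages differ in the wording of their labels, no group spans both, and all WT animals of 10 weeks were males, so age and handling cannot be told apart.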

How the data were processed

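Total RNA of pulverised mouse cortex was sequenced after ribosomal RNA depletion, per the labels' protocols. The deposited values are unnormalised counts per gene for 23 libraries. Tools named in the submitters' processing notes are STAR 2.3.0e, featureCounts 1.4.4, Trimmomatic 0.32 and bedtools 2.27.1, with mm10, and their roles are not stated. The strand setting and the annotation release are likewise not given in the sources used. Of 39017 genes, 37693 had an identifier in GENCODE M21 (GRCm38), which gave exon lengths and overlaps. The 2 libraries of WT replicate 3 at 10 weeks carry the same animal number and were summed, which left 22 animals.

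Differences were tested with edgeR 4.0.16 (limma 3.58.1, R 4.3.3) by its robust quasi-likelihood F test, with TMM factors, the filterByExpr filter, p-values adjusted by Benjamini-Hochberg over all genes tested and a threshold of 0.05. The 10-week fit held 14 animals and 21274 genes (10 residual degrees of freedom, biological coefficient of variation 0.137). The day 7 fit held 8 animals and 20451 genes with sex as a covariate (5 residual degrees of freedom, 0.124). The age comparison and the difference of the G34R effect between ages came from a fit of all 22 animals and 22417 genes (16 residual degrees of freedom, 0.133). Genes of the Y chromosome, Xist and Tsix, 175 in all, were left out. The SE is the size of the log2 fold change divided by the square root of F. CPM are on 1 TMM scale over the 22 animals. The code was tested on simulated data. Promoter windows came from RefSeq on GRCm38.p6. The alternatives, DESeq2 1.42.0 and limma-voom among them, are given with their effects at the end.

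The 34 genes, the other lists and the tests were chosen with earlier results of these data known. The text names the 34 genes, H3f3a and, from each other list, up to 3 genes with the smallest edgeR adjusted p over the 3 comparisons with WT at 10 weeks, and some names of called list genes beside counts of 5 or fewer, which were chosen after their values were seen. Some genes of the other lists are not reported here.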

Additional observations from a re-analysis of the deposited data

Results flagged for a closer look

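In WT at 10 weeks, replicate 1 stood apart above the 5 other animals for 4 genes, by Dixon's test of the gap to the next value. These were Cldn11 (174 CPM), Gjc3 (44.6 CPM), Plekhb1 (276 CPM) and Gal3st1 (11.9 CPM). At day 7, WT replicate 3 had 0.0812 CPM of Opalin where the other 3 were at 0, a gap that passes the test at any value above 0 and shows nothing. In the day 7 G34R group, replicate 2 stood apart for Tspan2 (44.5 CPM) and Gjc3 (4.76 CPM). Of 100 groups tested 7 stood out in this way, the one of Opalin included, and chance gives about 1 in 20.

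The difference between G34R and G34W passed the threshold for Anln (log2 0.62), and the G34R effect on Ermn differed between ages (log2 -1.11).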

How the results depend on the processing

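The counts of the 34 genes called by edgeR were 12 in G34V, 6 in G34W, 2 in G34R, 1 between G34R and G34W, 0 in the other 2 comparisons of substitutions, 1 at day 7, 1 for the difference between ages and 34 for age. With DESeq2 they were 22 in G34V, 16 in G34W, 5 in G34R, 1 between G34R and G34V, 2 between G34R and G34W and 3 for the difference between ages. With limma-voom they were 20 in G34V and 0 in G34W, between G34R and G34W and for the difference between ages. With runs of animal numbers as a block they were 3 in G34V, 1 in G34W, 1 in G34R and 0 between G34R and G34W. The sex label as a covariate acts like leaving out G34W replicate 2, the only female of 10 weeks. Under both settings the median log2 difference of the 34 genes was -0.28 in G34W and -0.21 between G34V and G34W. Only the compared groups gave counts of 4 in G34R and, with only WT and G34R animals, 2 for the difference between ages. Only the library set that holds the mutants gave 9 in G34V, 3 in G34W and 1 in G34R. A filter at 1 CPM gave 0 at day 7, and no filter gave 0 for the difference between ages. Without 1 animal at a time the counts ranged from 6 to 19 in G34V, 0 to 11 in G34W, 0 to 4 in G34R, 0 to 0 between G34R and G34V, 0 to 1 between G34R and G34W and between G34V and G34W, 0 to 1 at day 7, 0 to 2 for the difference between ages and 33 to 34 for age. Over all genes tested, the calls in the fits without 1 animal ranged from 497 to 1014 in G34V and from 693 to 1352 in G34R. The range in G34W takes in fits with 1 G34W animal and is not given. Such counts over all genes are not given here for the other settings. The causes of these moves were not tested. No result changed its direction while called, and the median over the 34 genes stayed between -0.56 and -0.36 in G34V, -0.69 and -0.28 in G34W and -0.27 and -0.11 in G34R. No paired analysis was possible because replicate numbers were given in accession order and pair no animals, and the block above rests on title numbers alone, since the labels do not say what a run shares.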

Other observations

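Cholesterol, which the myelin membrane needs in bulk, is made by a pathway of which 12 genes were measured. In G34R, 9 of the 12 fell (5 without G34R replicate 1), in G34V 2 fell (0 without G34V replicate 2, 1 without G34V replicate 1 or 3 or WT replicate 1, 2, 4 or 5) and in G34W 0 (2 without G34W replicate 2), with median log2 differences of -0.29, -0.18 and -0.21. Summed over the 12, WT animals had 908 to 1052 CPM, G34R 711 to 796, G34V 814 to 863 and G34W 812 to 824. Hmgcs1, an enzyme of the early steps, had a log2 difference of -0.43 in G34R (SE 0.0769, adjusted p = 0.00202 in edgeR), and Cyp51, a sterol demethylase, one of -0.41 (SE 0.069, adjusted p = 0.00117). At day 7, 0 of 12 differed in G34R by edgeR. Between day 7 and 10 weeks in WT all 12 fell, with a median log2 difference of -1.35, while all 34 myelin genes rose.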
